A study of Solanum lycopersicum with 36 samples.

Results

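The 200 genes described here had the strongest nitrogen (N) repression in roots of wild-type (WT) tomato, *Solanum lycopersicum* cultivar Castlemart II. Their transcripts were lower in WT roots supplied with N for 5 h (+N) than in WT roots kept without N (-N). They were chosen by the values of the 6 WT root libraries alone. Of 35872 listed genes and loci, 16050 had a mean normalized count of at least 50 in WT -N roots, and in 4978 of these every WT -N root library lay above every WT +N root library. The 200 with the largest difference of the mean log2(normalized count + 1) were taken. All 200 were gene models, and none of the 104 annotated miRNA loci was among them.

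Transcripts were measured by RNA-Seq in whole roots and whole shoots of the mutants *sdg33* and *sdg34* and of WT, each under +N and -N. The 12 groups held 3 libraries each, 36 in all, with 3 plants pooled for a library. *SDG33* and *SDG34* encode histone lysine methyltransferases, each mutant was 1 line made by genome editing, and WT carried neither edit. All plants grew for 2 weeks in nutrient medium and then for 2 days without N. The +N plants then received 1.2 mM KNO3, 0.8 mM Ca(NO3)2 and 0.2 mM NH4H2PO4, and the -N plants 0.6 mM K2SO4, 0.8 mM CaSO4 and 0.2 mM KH2PO4. N and sulfate thus differed together between the media and cannot be told apart here.

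Nitrate is both a nutrient and a signal for plants. Within hours of its supply to starved roots, genes of nitrate uptake and assimilation are switched on, while other genes that were active during the shortage are switched off. In Arabidopsis, a homolog of both tomato genes, SDG8, places methyl groups on histones of transcribed genes.

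The values, called normalized counts, are read counts that the study brought to 1 common distribution, so that all 36 libraries held the same sorted values. The sequencing depth of each library is therefore unknown, and errors were taken from the spread between libraries. Pearson's r between replicates of a group, across all listed genes and loci, was between 0.977 and 0.995. The summed normalized count of 6 photosynthesis genes was 194 to 626 in root libraries and 17855 to 97908 in shoot libraries. *SDG33* (*Solyc04g057880.3*) had 319 to 462 in *sdg33* roots and 392 to 525 in WT roots, and 136 to 284 in *sdg33* shoots and 380 to 562 in WT shoots. *SDG34* (*Solyc06g059960.3*) had 77 to 174 in *sdg34* roots and 130 to 201 in WT roots, and 58 to 95 in *sdg34* shoots and 98 to 194 in WT shoots. Both edited genes were thus still transcribed, and such totals do not show whether an edit is present.

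In WT roots, the mean normalized count of the members was 1.33 to 27866.7 under +N (median 59.2) and 50.3 to 100223 under -N (median 300.7). The N response, log2(+N/-N), was -6.64 for the first member and -1.60 for the last, with a median of -1.93. It was -4 or lower for 9 members, -3 or lower for 17 and -2 or lower for 89. The limit cut through a continuous range. The last members were *Solyc04g071610.3* (-1.61), *Solyc05g013440.3* (-1.61) and *Solyc01g108570.3* (-1.60), and the first genes left out were *Solyc06g036440.2* (-1.60), *Solyc08g075550.3* (-1.59) and *Solyc07g041900.3* (-1.59). These values chose the members and are given as a description.

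The 4 members with the largest WT response were nearly silent in WT +N roots. *Solyc04g079510.2*, the first of them, had 0, 2 and 2 normalized counts in WT +N roots and 233, 247 and 154 in WT -N roots. *Solyc09g065750.3* had 0, 0 and 4 under +N and 96, 204 and 120 under -N, *Solyc11g005610.1* 0, 2 and 3 against 111, 158 and 203, and *Solyc08g079300.3* 9, 2 and 6 against 242, 660 and 324. *Solyc10g018150.2* had 46, 52 and 42 against 1160, 2110 and 1150. None of the first 10 members has a description in the gene lists at hand, so no role is given to them. The others were *Solyc09g091700.3*, *Solyc06g007960.3*, *Solyc03g078500.3*, *Solyc09g098620.2* and *Solyc07g045460.3*, with WT responses of -4.62, -4.27, -4.24, -4.24 and -3.88. At the other end of abundance, *Solyc04g071610.3* had 7878 to 10914 in WT +N roots and 25329 to 33188 in WT -N roots.

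None of 18 listed genes of N transport, assimilation and N status was a member, nor any of 5 phosphate genes, and 1 of 7 sulfate genes was. The members were 200 of 16050 genes with a mean of at least 50 in WT -N roots, so lists this short say little. A member that is not on these lists may still have such a role. *Solyc12g006050.2*, of the major facilitator superfamily to which many nitrate transporters belong, is a member and was not on them. In *sdg33* roots, 2 of the 16 N genes tested fell under +N and 12 rose, where 23.2% and 20.7% of all genes did. In *sdg34* roots 4 fell and 9 rose, where 27.1% and 25.7% of all genes did. The same shares apply to the sulfate and phosphate genes, whose small counts are no result about them. Of the 7 sulfate genes, 2 fell and 3 rose in *sdg33* roots and 3 and 3 did in *sdg34* roots, and of the 4 phosphate genes tested 0 and 1 did in *sdg33* and 1 and 1 in *sdg34*. Descriptions were at hand for 34 of the 200 members, because the study listed them as different from WT in shoots or in *sdg33* roots. Members lay on all 12 chromosomes. Chromosome 1 held 32 (16%, against 12.4% of the gene models listed), chromosome 9 held 21 (10.5% against 7.15%) and chromosome 3 held 20 (10% against 9.75%). In 13 places a pair of members lay within 3 gene models of each other, and these pairs held 26 members (13%). Of the other genes with a mean of at least 50 in WT -N roots, 3.86% had a member that near. Whether such neighbours share reads was not tested.

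**Figure D1:**
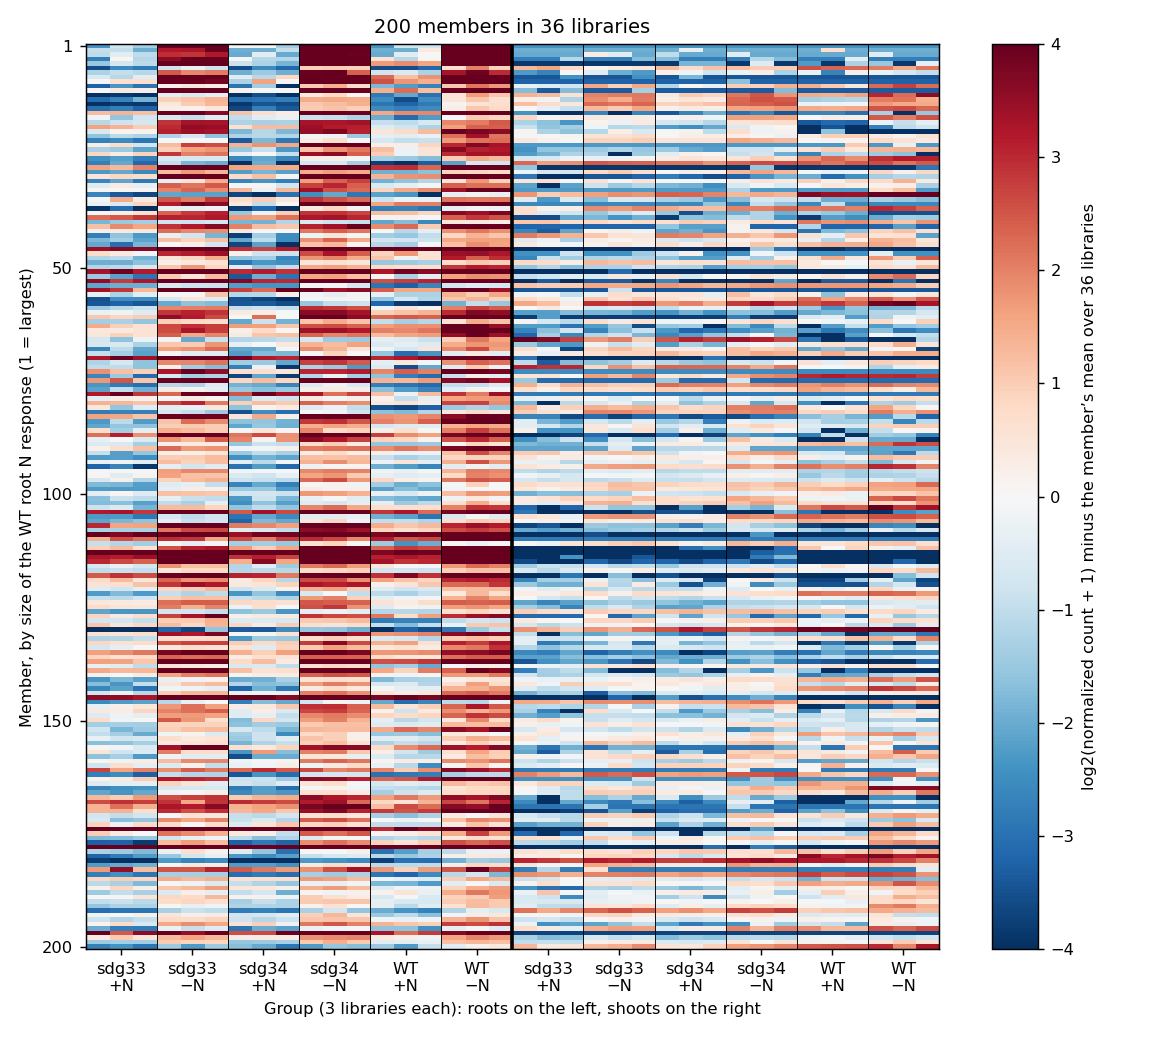
Level of the 200 members in the 36 libraries, as log2(normalized count + 1) minus the member's mean over all libraries (colour, cut off at -4 and 4). Rows follow the size of the WT root response, with the largest at the top, and columns are groups of 3 libraries, roots on the left and shoots on the right. In roots of all genotypes the +N columns are lower than the -N columns for most rows, and many rows are low in every shoot column.

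Roots of the mutants show whether this repression was also present in the edited lines, in libraries that played no part in choosing the genes. In *sdg33* roots 180 of the 200 members fell under +N and 0 rose (limma on log2(normalized count + 1), adjusted p under 0.05), while 23.2% of all 20670 genes tested fell. In whole organs, fewer cells of a type and less RNA per cell cannot be told apart. In *sdg34* roots 183 fell and 0 rose, against 27.1% of all genes that fell. No member rose at an unadjusted p under 0.05 in either mutant, where 23.7% of all genes did in *sdg33* and 28% in *sdg34*. The median log2(+N/-N) of the members was -1.84 in *sdg33* roots and -2.29 in *sdg34* roots, and that of all genes tested was -0.02 in each. All 3 +N libraries lay below all 3 -N libraries for 181 members in *sdg33* roots (27.2% of all genes) and for 183 in *sdg34* roots (29.8%). Both mutants called 177 members, against 19.4% of all genes, with 3 called in *sdg33* alone, 6 in *sdg34* alone and 14 in neither. All 200 members had a value of 10 or more in 3 or more of the 12 mutant root libraries, so none was tested only because it was high in WT.

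The most repressed members of the mutant roots were nearly silent under +N. *Solyc03g078500.3* had 6, 4 and 7 normalized counts in +N and 469, 611 and 724 in -N *sdg33* roots, a log2(+N/-N) of -6.50 (SE 0.38, limma adjusted p = 6.95e-10). In *sdg34* roots it had 7, 4 and 18 under +N and 1302, 1160 and 1078 under -N (-7.01, SE 0.38, limma adjusted p = 1.39e-10). *Solyc10g018150.2* had 4, 8 and 6 in +N and 322, 436 and 501 in -N *sdg33* roots. In *sdg34* roots it had 7, 5 and 3 under +N and 1539, 1604 and 1014 under -N. The +N and -N libraries were far apart in each case. Its responses were -5.93 in *sdg33* and -7.88 in *sdg34* (SE 0.29 each). *Solyc04g079510.2* had 0, 2 and 1 in +N and 101, 132 and 216 in -N *sdg33* roots (-6.30, SE 0.49), and 4, 4 and 1 in +N and 692, 1164 and 806 in -N *sdg34* roots (-7.88, SE 0.49). *Solyc09g065750.3* had in *sdg34* roots 0, 0 and 1 under +N and 168, 210 and 128 under -N (-7.04, SE 0.58).

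A large response was also seen for *Solyc08g007080.3*, an undescribed gene far down the list, which had 62, 64 and 42 in +N and 1460, 1944 and 1428 in -N *sdg33* roots, and 62, 83 and 65 in +N and 2176, 2740 and 2258 in -N *sdg34* roots. WT roots had 1117, 887 and 1195 under +N and 3589, 2973 and 3606 under -N. The +N libraries had at most 83 in the mutants and at least 887 in WT. The response was -4.83 in *sdg33* and -5.08 in *sdg34* (SE 0.17 each), and -1.67 in WT.

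**Figure D2:**
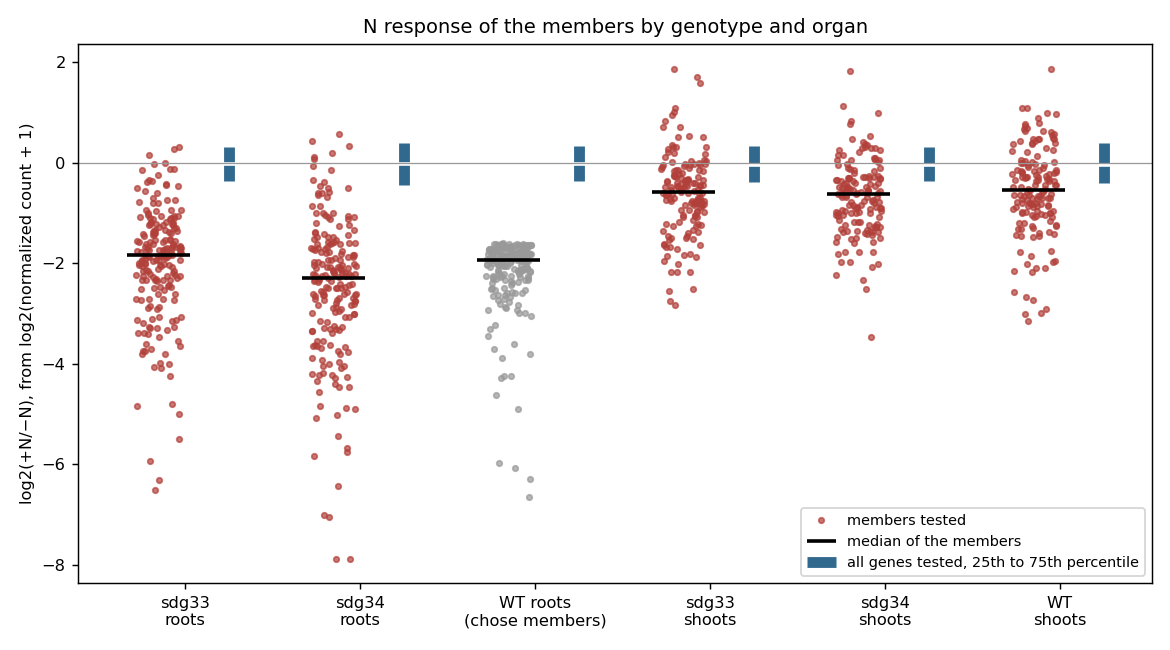
Log2(+N/-N) of each member tested (points) in roots and shoots of *sdg33*, *sdg34* and WT, with the median of the members (black bar) and the 25th to 75th percentile of all genes tested (blue bar, median in white). The WT root values, in grey, chose the members. The medians are -1.84 and -2.29 in *sdg33* and *sdg34* roots and between -0.63 and -0.55 in the shoots.

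The 14 members called in neither mutant's roots were *Solyc12g013620.2*, *Solyc01g080790.3*, *Solyc09g089930.2*, *Solyc12g006050.2*, *Solyc03g034110.3*, *Solyc05g007770.3*, *Solyc05g051610.2*, *Solyc09g089610.3*, *Solyc10g045240.2*, *Solyc02g085630.3*, *Solyc11g066880.2*, *Solyc04g078460.3*, *Solyc06g075040.1* and *Solyc01g108570.3*. A missed threshold does not show that there was no response, and the difference from WT was not tested, since WT chose them. *Solyc12g013620.2* had 220, 80 and 140 in +N and 156, 125 and 172 in -N *sdg33* roots, and 121, 176 and 199 in +N and 134, 124 and 103 in -N *sdg34* roots. In WT roots it had 60, 28 and 50 under +N and 236, 497 and 436 under -N. All mutant libraries, under +N and -N alike, lay between the WT +N and the WT -N libraries. Its response was -0.15 in *sdg33* and 0.43 in *sdg34* (SE 0.34 each, limma adjusted p = 0.76 and 0.305), against -3.05 in WT.

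Regulators were among these 14. *Solyc09g089930.2*, the ethylene responsive factor E.2 of a family of transcription factors that act in ethylene signalling, had 31, 16 and 43 in +N and 46, 12 and 27 in -N *sdg33* roots. In *sdg34* roots it had 22, 23 and 26 under +N and 31, 18 and 18 under -N, and in WT roots 40, 35 and 27 under +N and 102, 226 and 155 under -N. The WT -N libraries stood apart from all other root libraries. Its responses were 0.16 in *sdg33* and 0.12 in *sdg34* (SE 0.42 each, limma adjusted p = 0.785 and 0.829). *Solyc05g007770.3* encodes a NAC transcription factor whose Arabidopsis homolog promotes leaf senescence. It had 322, 80 and 164 in +N and 174, 190 and 314 in -N *sdg33* roots, and 76, 256 and 304 in +N and 164, 200 and 121 in -N *sdg34* roots. WT roots had 20, 18 and 24 under +N and 85, 100 and 80 under -N, and the lowest mutant library had 76.

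*Solyc12g006050.2*, a membrane carrier of the major facilitator superfamily to which many nitrate transporters belong, varied widely between replicates. It had 28, 28 and 18 in +N and 66, 21 and 17 in -N *sdg33* roots, 8, 49 and 3 in +N and 23, 20 and 11 in -N *sdg34* roots, and 39, 4 and 13 in +N and 40, 116 and 48 in -N WT roots. The groups overlapped in both mutants (-0.24 and -0.58, SE 0.80 each). *Solyc11g066880.2* had the highest response in *sdg33* roots (0.32, SE 0.34), and *Solyc10g045240.2* the next (0.28, SE 0.47). *Solyc03g034110.3* had the highest in *sdg34* roots (0.57, SE 0.62), and *Solyc02g085630.3* had 0.34 (SE 0.32). The adjusted p of these 4 was between 0.391 and 0.666. *Solyc04g078460.3* had 977, 448 and 933 in +N and 880, 547 and 860 in -N *sdg33* roots (-0.01, SE 0.34), against 268, 270 and 268 in +N and 680, 1184 and 800 in -N WT roots.

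Both mutants could be compared with each other in roots, since neither chose the members. Under -N the members were higher in *sdg34* than in *sdg33*: 169 of 200 had a positive log2(*sdg34*/*sdg33*), with a median of 0.37, against -0.01 over all genes. In all, 11 members passed the test as higher and 0 as lower, where 0.547% of all genes were called higher and 0.75% lower. At an unadjusted p under 0.05, 71 were higher and 0 lower, where 7.41% and 8.55% of all genes were. The median log2(normalized count + 1) over the members was 8.10, 8.31 and 7.88 in the *sdg34* -N libraries and 7.66, 7.57 and 7.61 in the *sdg33* -N libraries, with no overlap. The WT -N libraries had 7.99, 8.36 and 8.17. Over all genes tested in roots this median was 8.04 in every root library. The common distribution given to the libraries sets that value, so it is no check on the difference between the mutants. The number called depended on single libraries. It was 2 without *sdg34* -N replicate 2, 4 without *sdg33* -N replicate 2, 6 without *sdg33* -N replicate 1 or *sdg34* -N replicate 1, 7 without *sdg33* -N replicate 3 and 20 without *sdg34* -N replicate 3. Without the filter on low values it was 2.

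Of the 11, *Solyc04g079510.2* had 692, 1164 and 806 normalized counts in *sdg34* and 101, 132 and 216 in *sdg33* -N roots, with 233, 247 and 154 in WT. The *sdg34* libraries lay above all others. Its log2(*sdg34*/*sdg33*) was 2.60 (SE 0.49, limma adjusted p = 0.0149), and the call was lost without *sdg33* -N replicate 2 (adjusted p = 0.0617) or *sdg34* -N replicate 2 (0.123), with a pseudocount of 0.1 (0.237) and without the filter on low values (0.0809). *Solyc08g066720.2* had 104, 113 and 92 in *sdg34* and 11, 32 and 29 in *sdg33* (2.18, SE 0.39, limma adjusted p = 0.0115), and 39, 64 and 48 in WT. *Solyc10g018150.2* had 1539, 1604 and 1014 against 322, 436 and 501 (1.72, SE 0.29, limma adjusted p = 0.00704). Both also lost the call without *sdg34* -N replicate 2, with adjusted p = 0.0827 and 0.0672, and without the filter on low values (0.0504 each). *Solyc01g109790.3* encodes the large subunit of ADP-glucose pyrophosphorylase, an enzyme of starch synthesis. It had 1391, 1352 and 1194 in *sdg34* and 760, 728 and 760 in *sdg33* -N roots (0.80, SE 0.16, limma adjusted p = 0.0232). *Solyc03g098030.3*, an inositol polyphosphate 5-phosphatase of phosphoinositide signalling, had 662, 554 and 616 against 194, 286 and 319 (1.22, SE 0.20, limma adjusted p = 0.00661). The other 6 were *Solyc09g091700.3*, *Solyc01g059900.3*, *Solyc02g083980.3*, *Solyc10g083180.2*, *Solyc02g084930.3* and *Solyc04g057940.3*.

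Under +N, 4 members were lower in *sdg34* than in *sdg33* roots and 0 were higher, where 0.339% and 0.348% of all genes were called lower and higher. At an unadjusted p under 0.05, 24 were lower and 16 higher, where 8.25% and 7.19% of all genes were. The median log2(*sdg34*/*sdg33*) was -0.12. *Solyc05g051940.3* had 2, 2 and 1 in *sdg34* and 5, 6 and 10 in *sdg33* +N roots, against 26, 29 and 48 in WT (log2(*sdg34*/*sdg33*) -1.56, SE 0.28, limma adjusted p = 0.0185). *Solyc09g008760.1* encodes a protein with a VQ motif, a family that binds WRKY transcription factors. It had 6, 10 and 6 against 15, 25 and 26 (-1.46, SE 0.25, limma adjusted p = 0.0146), and 33, 40 and 57 in WT. *Solyc03g080020.3* had 31, 47 and 43 against 60, 60 and 76 (-0.69, SE 0.16, limma adjusted p = 0.0488), and *Solyc02g071070.3* was the fourth. The call of *Solyc03g080020.3* was lost when any of several single libraries was left out, with adjusted p up to 0.217, and with a pseudocount of 10 (0.0572) or rescaling by median of ratios (0.0509). None of the 4 was called without *sdg33* +N replicate 3 or without *sdg34* +N replicate 1. The count of higher members was 4 without *sdg34* +N replicate 3, 2 without *sdg33* -N replicate 1, and 1 without *sdg33* -N replicate 3, *sdg33* +N replicate 2, *sdg34* -N replicate 3, *sdg34* +N replicate 2 or WT -N replicate 1. With a pseudocount of 10 the difference of *Solyc05g051940.3* shrank to -0.53 (adjusted p = 0.167).

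The N response itself was more negative in *sdg34* than in *sdg33* for 162 of the 200 members, with a median difference of -0.50 against 0.01 over all genes. No member passed the test of this difference, where 0.0774% of all genes were called more negative and 0.169% less negative. At an unadjusted p under 0.05, 68 members were more negative in *sdg34* and 3 less, where 7.6% and 7.16% of all genes were. Without *sdg34* -N replicate 3, 17 members passed as more negative, and without *sdg34* +N replicate 2 there were 6. Leaving out *sdg33* -N replicate 1 or *sdg33* +N replicate 1 gave 3, and *sdg34* +N replicate 1 or WT -N replicate 2 gave 1. For *Solyc10g018150.2* the difference was -1.95 (SE 0.41, limma adjusted p = 0.055) and for *Solyc05g051940.3* -1.92 (SE 0.40, limma adjusted p = 0.0548).

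**Figure D3:**
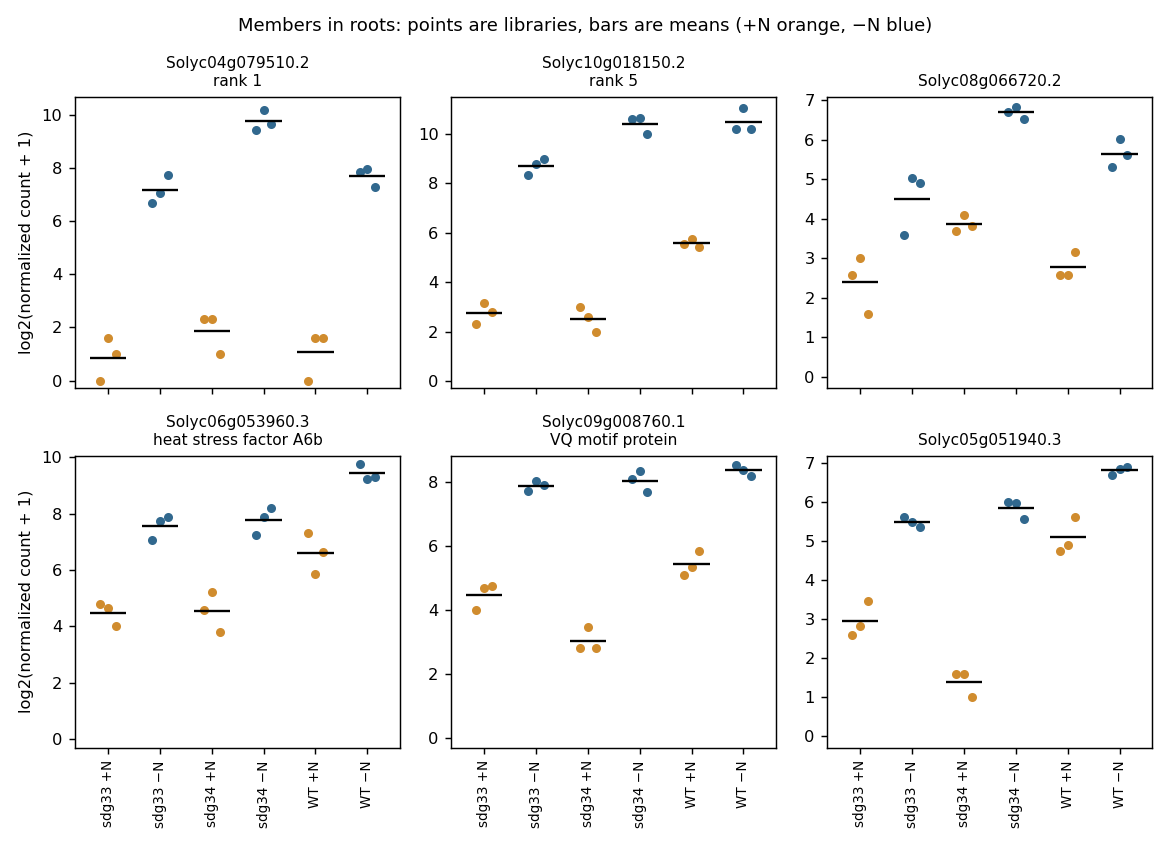
Log2(normalized count + 1) of 6 members in the root libraries of *sdg33*, *sdg34* and WT under +N (orange) and -N (blue); points are libraries and bars are means of 3. *Solyc04g079510.2* and *Solyc08g066720.2* are highest in *sdg34* -N roots, and *Solyc05g051940.3* and *Solyc09g008760.1* are lowest in *sdg34* +N roots.

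Against WT, the root levels in the mutants are given as a description, because the WT root libraries chose the members. Under -N, 93 members had all *sdg33* libraries below all WT libraries and 12 had all above, where 22.1% and 22.4% of all genes did. For *sdg34* these were 57 below (20.5%) and 37 above (20.2%), and 53 members were below WT in both mutants (14.8%) and 12 above in both (14.5%). The median log2(mutant/WT) was -0.40 in *sdg33* and -0.09 in *sdg34*. Under +N, 95 were below WT in *sdg33* (30.2%) and 28 above (26.5%), and 85 were below in *sdg34* (31.1%) and 25 above (25.1%), with medians of -0.41 and -0.49. The response was more negative than in WT for 76 members in *sdg33* and for 129 in *sdg34*. No share over all genes was computed for these counts. They are no result about the mutants, since the members were chosen for an extreme response in WT.

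Among the described members, a search of the descriptions for words of transcription factor families found 8. *Solyc06g053960.3* is the heat stress transcription factor HsfA6b, of a family that switches on protective proteins, and *Solyc06g053950.2*, next to it on chromosome 6, has a like description. *Solyc06g053960.3* had 27, 24 and 15 in +N and 132, 210 and 234 in -N *sdg33* roots, 23, 36 and 13 in +N and 152, 236 and 296 in -N *sdg34* roots, and 158, 57 and 98 in +N and 864, 595 and 634 in -N WT roots. Its log2(+N/-N) was -3.07 in *sdg33* and -3.25 in *sdg34* roots (SE 0.38 each, limma adjusted p = 4.94e-06 and 1.43e-06). Its levels in both mutants were under those of WT in each medium, which is a description, since the WT root libraries chose the members. *Solyc06g053950.2* had -2.33 and -3.62 (SE 0.38 each). *Solyc03g112390.3*, the R2R3-MYB factor MYB86, had 90, 123 and 81 in +N and 262, 254 and 245 in -N *sdg33* roots, and 68, 69 and 63 in +N and 386, 361 and 305 in -N *sdg34* roots. Its responses were -1.39 in *sdg33* and -2.37 in *sdg34* (SE 0.17 each).

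*Solyc10g050210.2*, an abscisic acid responsive element-binding factor that this search did not find, is of a family of transcription factors that act for this hormone of drought and seed dormancy. It had 15, 16 and 22 in +N and 76, 118 and 64 in -N *sdg33* roots, and 25, 11 and 18 in +N and 102, 110 and 93 in -N *sdg34* roots. WT roots had 60, 56 and 55 under +N and 255, 319 and 295 under -N. The groups did not overlap, and its responses were -2.19 in *sdg33* and -2.50 in *sdg34* (SE 0.26 each). *Solyc07g056570.1*, known as *notabilis*, encodes the dioxygenase that makes the precursor of abscisic acid. It had 27, 16 and 13 in +N and 40, 39 and 39 in -N *sdg33* roots and 13, 10 and 21 in +N and 31, 41 and 23 in -N *sdg34* roots, against 39, 34 and 9 in +N and 134, 156 and 142 in -N WT roots. The responses were -1.10 in *sdg33* and -1.08 in *sdg34* (SE 0.42 each, limma adjusted p = 0.0412 and 0.0373). *Solyc01g096320.3* encodes a homeodomain-leucine zipper protein whose Arabidopsis homolog responds to abscisic acid and drought. It had 9, 11 and 4 in +N and 42, 42 and 32 in -N *sdg33* roots, with responses of -2.22 in *sdg33* and -3.30 in *sdg34* roots (SE 0.33 each).

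Transporters, enzymes and signalling proteins made up most other described members. *Solyc09g082550.3*, a sulfate transporter and the member on the sulfate list, had 112, 45 and 54 in +N and 330, 133 and 133 in -N *sdg33* roots (-1.46, SE 0.75, limma adjusted p = 0.126). In *sdg34* roots it had 15, 262 and 24 under +N and 324, 338 and 169 under -N, where +N replicate 2 stood apart, and its response was -2.49 (SE 0.75, limma adjusted p = 0.00928). The *sdg34* call was lost without +N replicate 1 (adjusted p = 0.0659) and with only the libraries of the contrast in the fit (0.0533), and without *sdg34* +N replicate 2 the *sdg33* fall passed (0.016). *Solyc05g009590.3*, of the aluminum-activated malate transporters, which are anion channels, had responses of -2.15 in *sdg33* and -3.39 in *sdg34* roots (SE 0.42 each). *Solyc02g065520.1*, a receptor-like protein kinase, had 30, 43 and 22 in +N and 268, 275 and 318 in -N *sdg33* roots and 26, 24 and 16 in +N and 474, 508 and 388 in -N *sdg34* roots. Its responses were -3.19 in *sdg33* and -4.33 in *sdg34* (SE 0.24 each), against -2.13 in WT.

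Oxidoreductases made up the second largest described family, with 6 members. *Solyc06g067870.3*, a 2-oxoglutarate-dependent dioxygenase, had 262, 260 and 182 in +N and 1514, 1672 and 1395 in -N *sdg33* roots (-2.71, SE 0.19). In *sdg34* roots it had 143, 201 and 106 under +N and 1963, 2154 and 1493 under -N (-3.66, SE 0.19). The +N and -N libraries did not overlap in either mutant. *Solyc03g080150.3*, a peroxidase, was the most abundant of them, with 1061, 1048 and 860 in +N and 3386, 3426 and 4662 in -N *sdg33* roots, with responses of -1.94 in *sdg33* and -2.14 in *sdg34* (SE 0.22 each). *Solyc01g067620.3* and *Solyc09g089780.3*, both 2-oxoglutarate- and iron-dependent oxygenases, had responses of -1.69 and -1.74 in *sdg33* and of -2.11 and -2.15 in *sdg34*. The F-box gene *Solyc10g052650.2*, of a family that marks proteins for breakdown, had -1.88 in *sdg33* and -1.59 in *sdg34* (SE 0.26 each). *Solyc01g094130.2*, a cytochrome P450, had 7, 6 and 4 in +N and 76, 122 and 119 in -N *sdg33* roots, with responses of -4.0 in *sdg33* and -2.89 in *sdg34* (SE 0.32 each). *Solyc04g015520.3*, a remorin, of a family of plasma membrane proteins, had 35, 48 and 27 in +N and 191, 188 and 170 in -N *sdg33* roots, with responses of -2.32 in *sdg33* and -3.14 in *sdg34* (SE 0.25 each). Of the 34 described members, 30 fell in both mutants' roots, as did 177 of all 200 members and 19.4% of all genes.

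Many members were hardly expressed in shoots. For 47 of the 200 (23.5%) the mean was under 10 in every shoot group, against 4.80% of all 16050 genes with a mean of at least 50 in WT -N roots. *Solyc04g079510.2* was listed at 0 in all 18 shoot libraries, and *Solyc09g098620.2* had 2 in a single *sdg34* -N library and 0 in the others. The shoot tests covered 154 members, and 46 did not reach a value of 10 in 3 shoot libraries. In contrast, 60 members had at least as high a mean in -N shoots as in -N roots of WT. The share of all genes that did was not computed, and the WT root values also chose the members.

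Of the 154 members tested, 63 fell under +N in *sdg33* shoots and 5 rose (13.8% and 12.7% of all 21031 genes tested). In *sdg34* shoots 64 fell and 2 rose (11% and 11.1%), and in WT shoots 63 fell and 8 rose (15.4% and 15%). The median log2(+N/-N) was -0.58 in *sdg33*, -0.63 in *sdg34* and -0.55 in WT shoots, against -0.05, -0.04 and -0.04 over all genes. The members that fell in all 3 shoots numbered 35, against 3.71% of all genes. Of these, 34 fell in both mutants' roots too, but so did 177 of all 200 members. No share over all genes was computed for a fall in both organs, so the 34 are no result about a link between them. A further 63 tested members fell in no shoot, a count for which no share over all genes was computed. The 5 that rose in *sdg33* shoots became 3 without *sdg33* -N replicate 1 or 3 or *sdg33* +N replicate 2, and the 8 in WT shoots became 5 without WT +N replicate 2.

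The 3 lowest responses that passed the test in each genotype's shoots included described and undescribed members. *Solyc02g071090.3*, undescribed, had 343, 260 and 125 in +N and 1046, 803 and 1218 in -N *sdg33* shoots, 340, 404 and 358 in +N and 1423, 1673 and 1578 in -N *sdg34* shoots, and 110, 118 and 127 in +N and 1176, 1296 and 776 in -N WT shoots. The media did not overlap in any genotype. Its responses were -2.17 in *sdg33*, -2.08 in *sdg34* and -3.15 in WT (SE 0.26 each). *Solyc01g101260.2* had -2.75 in *sdg33*, -1.97 in *sdg34* and -2.99 in WT (SE 0.46 each). *Solyc04g078460.3*, which did not respond detectably in mutant roots, had 117, 141 and 144 in +N and 1006, 648 and 693 in -N *sdg33* shoots, and 120, 226 and 138 in +N and 868, 1076 and 760 in -N *sdg34* shoots (-2.51 in each, SE 0.24). In WT shoots *Solyc11g066880.2* fell by 3.00 (SE 0.92, limma adjusted p = 0.0183) from low values, namely 0, 0 and 6 under +N and 12, 24 and 10 under -N. That call was lost without WT -N replicate 2, WT +N replicate 1 or WT +N replicate 2 (adjusted p = 0.067, 0.0782 and 0.0757). In *sdg33* shoots the low members *Solyc05g051880.3* and *Solyc03g118760.3*, a beta-tubulin, had responses of -2.83 and -2.54 (SE 0.78 and 0.71). The first lost its call without *sdg33* -N replicate 1 or *sdg33* +N replicate 3, and the second without *sdg33* -N replicate 1 or *sdg33* +N replicate 2. The sulfate transporter *Solyc09g082550.3* had 7, 32 and 9 in +N and 153, 174 and 133 in -N *sdg34* shoots and fell by 3.47 (SE 0.54, limma adjusted p = 1.11e-04). *Solyc06g059870.1* fell by 2.33 in *sdg34* shoots (SE 0.21).

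A few members went the other way in shoots. *Solyc12g009820.2*, undescribed, rose in all 3 genotypes, as 6.66% of all genes did. It had 196, 270 and 271 in +N and 102, 92 and 54 in -N *sdg33* shoots, 184, 180 and 169 in +N and 48, 52 and 48 in -N *sdg34* shoots, and 496, 383 and 390 in +N and 100, 132 and 116 in -N WT shoots. The +N and -N libraries did not overlap in any of these shoots, with log2(+N/-N) of 1.59, 1.83 and 1.86 (SE 0.22 each), while in the roots of *sdg33* and *sdg34* its responses were -0.75 and -1.11 (SE 0.26 each). The major facilitator gene *Solyc12g006050.2* had 487, 432 and 474 in +N and 102, 204 and 134 in -N *sdg33* shoots (1.71, SE 0.29, limma adjusted p = 2.49e-04). *Notabilis*, *Solyc07g056570.1*, had 915, 870 and 685 in +N and 440, 498 and 447 in -N *sdg34* shoots (0.82, SE 0.17, limma adjusted p = 0.00135). *Solyc04g081130.1* rose by 1.10 in *sdg33* shoots (SE 0.36, limma adjusted p = 0.0276), a call lost without *sdg33* -N replicate 1 or 3 or *sdg33* +N replicate 2 (adjusted p = 0.0972, 0.0727 and 0.119). In WT shoots *Solyc10g045240.2* rose by 1.09 (SE 0.32, limma adjusted p = 0.0144) and *Solyc09g008320.3* by 0.68 (SE 0.20, limma adjusted p = 0.0159). Both calls were lost without WT +N replicate 2 (adjusted p = 0.107 and 0.0992), and the second also without WT -N replicate 1 (0.0676).

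The genotype effect in shoots, averaged over +N and -N, was tested against WT, whose shoot libraries played no part in choosing the members. In *sdg33* shoots 78 of 154 members were lower than in WT and 32 higher, where 28.2% of all genes were lower and 32.9% higher. In *sdg34* shoots 70 were lower and 41 higher (25.2% and 29.3%). The median log2(mutant/WT) was -0.51 in *sdg33* and -0.32 in *sdg34*, against 0.05 and 0.03 over all genes. Both comparisons share the WT libraries. The counts in both were 67 lower (21.8% of all genes) and 32 higher (25.6%), and no member was called in opposite directions. Genes with a description were listed by the study for a difference from WT in these same samples, so their calls in shoots are no independent evidence of a direction.

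Of the members lower in both mutants' shoots, *Solyc01g096320.3*, the homeodomain-leucine zipper gene, was the lowest by the mean of both mutants. It had 1, 0 and 1 in +N and 9, 5 and 5 in -N *sdg33* shoots and 0, 3 and 0 in +N and 6, 4 and 11 in -N *sdg34* shoots, against 76, 112 and 98 in +N and 288, 131 and 182 in -N WT shoots. No mutant library came near a WT library of the same medium. Its log2(mutant/WT) was -5.33 in *sdg33* and -5.29 in *sdg34* (SE 0.40 each, limma adjusted p = 1.19e-09 and 1.74e-09), on the log2(normalized count + 1) scale. *Solyc03g098030.3*, the inositol phosphatase, was listed at 0 in all 6 *sdg33* shoot libraries and at 0 to 5 in *sdg34* shoots, against 25 to 74 in WT shoots (log2(mutant/WT) of -5.55 and -4.29, SE 0.52 each, limma adjusted p = 2.74e-08 and 1.18e-06). In roots the same gene had 194 to 319 in *sdg33*, 554 to 662 in *sdg34* and 692 to 792 in WT under -N. The WT root values chose the member, so these are given as a description. *Solyc01g096320.3* and *Solyc03g098030.3* passed the filter on low values in shoots through WT libraries. Their mutant values were low and included 0, so the sizes of their differences depend on the pseudocount. *Solyc10g052650.2*, the F-box gene, had 164, 176 and 147 in +N and 250, 262 and 246 in -N *sdg33* shoots, and 86, 64 and 88 in +N and 206, 234 and 178 in -N *sdg34* shoots. WT shoots had 1676, 1148 and 1378 under +N and 1829, 1216 and 1424 under -N. Its log2(mutant/WT) was -2.81 in *sdg33* and -3.48 in *sdg34* (SE 0.12 each). *Notabilis*, *Solyc07g056570.1*, had -2.32 and -2.05 (SE 0.12 each), and *Solyc06g053960.3*, HsfA6b, -2.65 and -2.30 (SE 0.21 each).

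Of the members higher in both mutants' shoots, the ethylene responsive factor gene *Solyc09g089930.2* was the highest. It had 857, 646 and 344 in +N and 174, 214 and 102 in -N *sdg33* shoots and 289, 435 and 352 in +N and 539, 454 and 322 in -N *sdg34* shoots. WT shoots had 6, 0 and 4 under +N and 2, 0 and 22 under -N. The lowest mutant library had 102 and the highest WT library 22. Its log2(mutant/WT) was 6.36 in *sdg33* and 6.74 in *sdg34* (SE 0.56 each, limma adjusted p = 1.08e-08 and 6.54e-09). In -N roots the order was the other way, with 46, 12 and 27 in *sdg33* and 31, 18 and 18 in *sdg34* against 102, 226 and 155 in WT. High WT -N root values made this gene a member, so that order is a description and was not tested. *Solyc09g008760.1*, the VQ motif gene, had 7 to 28 in *sdg33* and 11 to 38 in *sdg34* shoots, and in WT shoots it had 0, 7 and 0 under +N and was listed at 0 in all -N libraries (limma adjusted p = 1.33e-05 and 1.96e-06). *Solyc09g089780.3*, the oxygenase gene, had 21 to 51 in *sdg33* and 28 to 133 in *sdg34* shoots, against 0 to 9 in WT shoots. Its log2(mutant/WT) was 2.71 and 3.93 (SE 0.45 each). These genes passed the filter on low values in shoots through mutant libraries. Their WT values were low and included 0, so the sizes of their differences depend on the pseudocount.

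**Figure D4:**
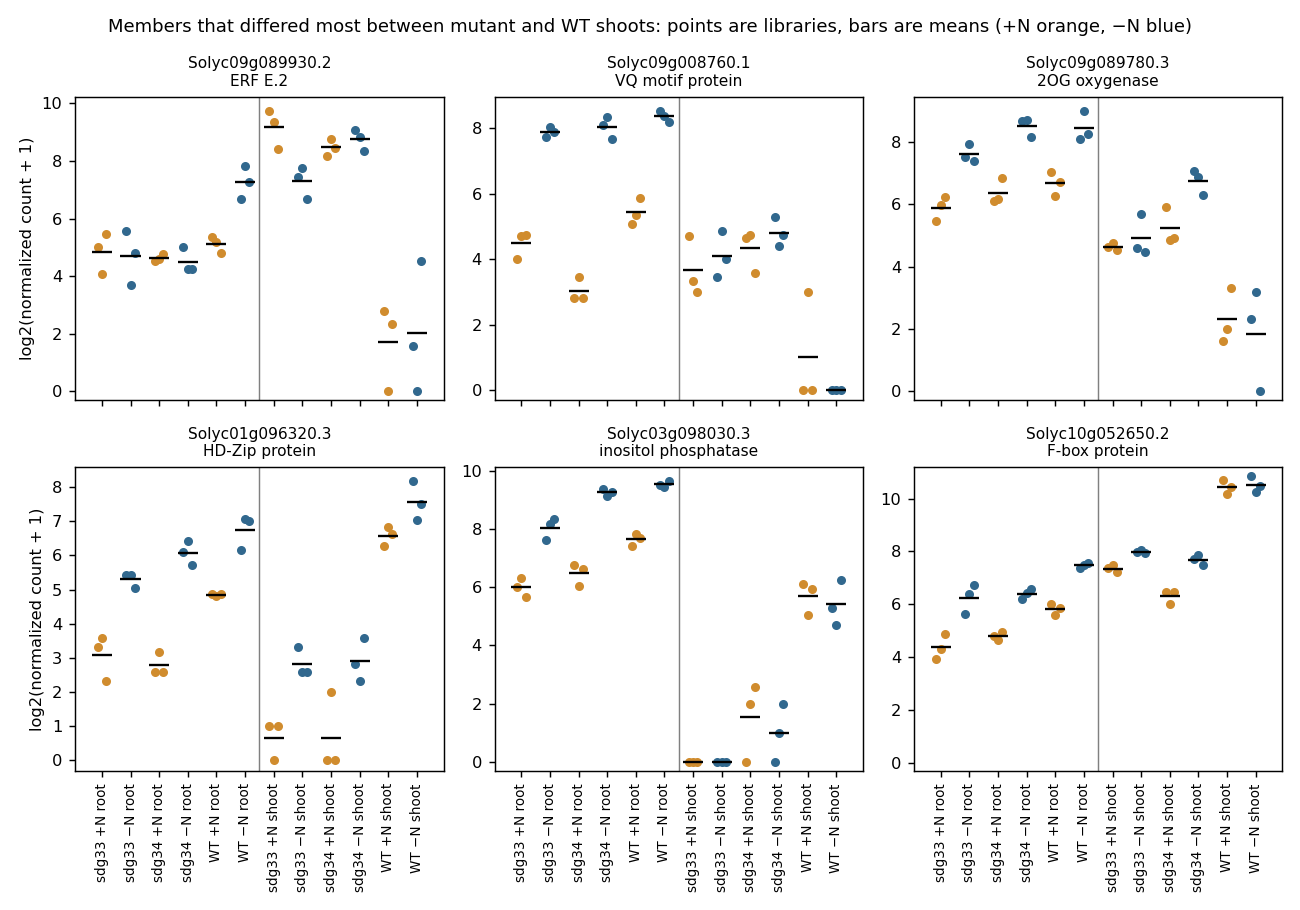
Log2(normalized count + 1) of the 6 members with the largest called difference between mutant and WT shoots, 3 in each direction, in all 12 groups; +N libraries are orange, -N libraries blue, bars are means of 3, and a grey line parts roots (left) from shoots (right). In shoots the upper genes are above WT in both mutants, and the lower genes are below it.

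The N response of the members differed between mutant and WT shoots for few of them. It was more negative in *sdg33* than in WT for 7 members and less negative or more positive for 4 (2.91% and 1.51% of all genes). In *sdg34* these were 10 and 6 (4.15% and 2.68%). Of these, 4 were more negative in both mutants and 2 less negative (1.83% and 0.903% of all genes), in comparisons that share the WT libraries. The 7 in *sdg33* became 3 without *sdg33* -N replicate 1, 4 without *sdg33* -N replicate 3, *sdg33* +N replicate 2, *sdg33* +N replicate 3 or WT +N replicate 2, and 11 without *sdg33* +N replicate 1 or WT -N replicate 1. The 4 in *sdg33* became 7 without *sdg33* +N replicate 3.

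*Solyc02g089620.3* and *Solyc08g007080.3*, both undescribed, responded less than WT in both mutants' shoots. *Solyc02g089620.3* had 1880, 2206 and 2822 in +N and 2570, 2778 and 3436 in -N *sdg33* shoots and 2453, 2188 and 2260 in +N and 4464, 3704 and 3082 in -N *sdg34* shoots. WT shoots had 1298, 1312 and 1234 under +N and 7372, 9211 and 6485 under -N, so the mutant libraries lay between the WT media. The interaction was 2.21 in *sdg33* and 1.88 in *sdg34* (SE 0.22 each, limma adjusted p = 1.03e-05 and 5.62e-05). *Solyc08g007080.3* had 285, 278 and 228 in +N and 316, 542 and 486 in -N *sdg33* shoots, 744, 720 and 594 in +N and 616, 484 and 624 in -N *sdg34* shoots, and 376, 521 and 588 in +N and 2010, 2294 and 1980 in -N WT shoots. Its shoot interactions were 1.37 and 2.36 (SE 0.27 each). *Solyc12g013620.2* had 434, 268 and 305 in +N and 317, 296 and 300 in -N *sdg33* shoots, against 238, 300 and 286 in +N and 1322, 1008 and 1421 in -N WT shoots (interaction 2.29, SE 0.24, limma adjusted p = 1.38e-05). *Notabilis*, *Solyc07g056570.1*, rose under +N in *sdg34* shoots and fell in WT shoots, where it had 2277, 1892 and 1813 under +N and 3838, 3035 and 2974 under -N (interaction 1.54, SE 0.24).

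In the other direction, *Solyc04g071610.3*, an abundant member, fell in both mutants' shoots and rose in WT shoots. It had 3432, 2576 and 2732 in +N and 5468, 4273 and 5067 in -N *sdg33* shoots, 2576, 3134 and 2768 in +N and 4042, 4126 and 3957 in -N *sdg34* shoots, and 7456, 7927 and 6574 in +N and 4958, 4262 and 4934 in -N WT shoots. All +N libraries of WT lay above all mutant libraries. The interaction was -1.40 in *sdg33* and -1.15 in *sdg34* (SE 0.17 each, limma adjusted p = 1.06e-04 and 6.12e-04). *Solyc06g009190.3* had 746, 752 and 534 in +N and 1598, 1254 and 1981 in -N *sdg33* shoots, against 4108, 4568 and 4248 in +N and 4082, 4188 and 3520 in -N WT shoots (-1.38, SE 0.23). *Solyc04g005070.3* had interactions of -1.20 and -1.48 in *sdg33* and *sdg34* (SE 0.25 each). In *sdg34* shoots *Solyc05g052680.1*, of the HXXXD acyltransferases that modify plant secondary compounds, had 43, 70 and 79 under +N and 218, 253 and 268 under -N, against 51, 48 and 21 under +N and 17, 10 and 37 under -N in WT shoots (-2.93, SE 0.55, limma adjusted p = 0.00328). *Solyc06g059870.1* had -1.45 (SE 0.30, limma adjusted p = 0.00698).

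The root response was set against the shoot response within each mutant, in a fit of all 36 libraries that tested all 200 members. The 46 members not tested in shoots entered it through their root values alone. Their shoot values were too low to measure a shoot response, so the result is given for the 154 past the filter in both organs. In *sdg33* the root response was more negative than the shoot response for 81 of the 154 and less negative for 1, where 11% and 11.1% of the 19068 genes past the filter in both organs were called. In *sdg34* these were 101 and 3 (14.4% in each direction). The median difference was -1.24 in *sdg33* and -1.59 in *sdg34*, against -0.02 in each over those genes. Both mutants called 77 of the 154 as more negative in roots, against 6.52% of those genes. Members were chosen for a strong response in WT roots, and most kept it in mutant roots. The choice thus favours a larger response in roots than in shoots, and genes not so chosen are no like reference. With a value of at least 10 asked of every library, 98 members were tested, and 64 were more negative in roots of *sdg33* (14% of all genes tested so) and 75 in *sdg34* (17.5%). With the 46 included, the counts were 104 and 1 in *sdg33* (9.88% and 10.1% of all 22702 genes) and 129 and 3 in *sdg34* (13.2% and 13%), and nothing rests on these. The 1 less negative member in *sdg33* became 3 without *sdg33* +N shoot replicate 1, and 2 without *sdg34* -N shoot replicate 3 or *sdg34* +N shoot replicate 2 or 3.

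Of the members expressed in both organs, *Solyc08g007080.3* had a response of -4.83 in *sdg33* roots and -0.73 in *sdg33* shoots, a difference of -4.10 (SE 0.27, limma adjusted p = 8.62e-12), and the difference was -5.34 in *sdg34* (SE 0.27). The member with the opposite order in both mutants was *Solyc04g078460.3*, with differences of 2.51 in *sdg33* and 2.06 in *sdg34* (SE 0.44 each, limma adjusted p = 1.47e-04 and 7.58e-04). In *sdg34*, *Solyc12g013620.2* (2.02, SE 0.40) and *Solyc06g059870.1* (0.85, SE 0.28, limma adjusted p = 0.0247) were also repressed more in shoots than in roots. The last call was lost without *sdg34* -N root replicate 3, *sdg34* +N root replicate 3, *sdg34* -N shoot replicate 1 or 2 or *sdg34* +N shoot replicate 3 (adjusted p between 0.0599 and 0.109).

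**Figure D5:**
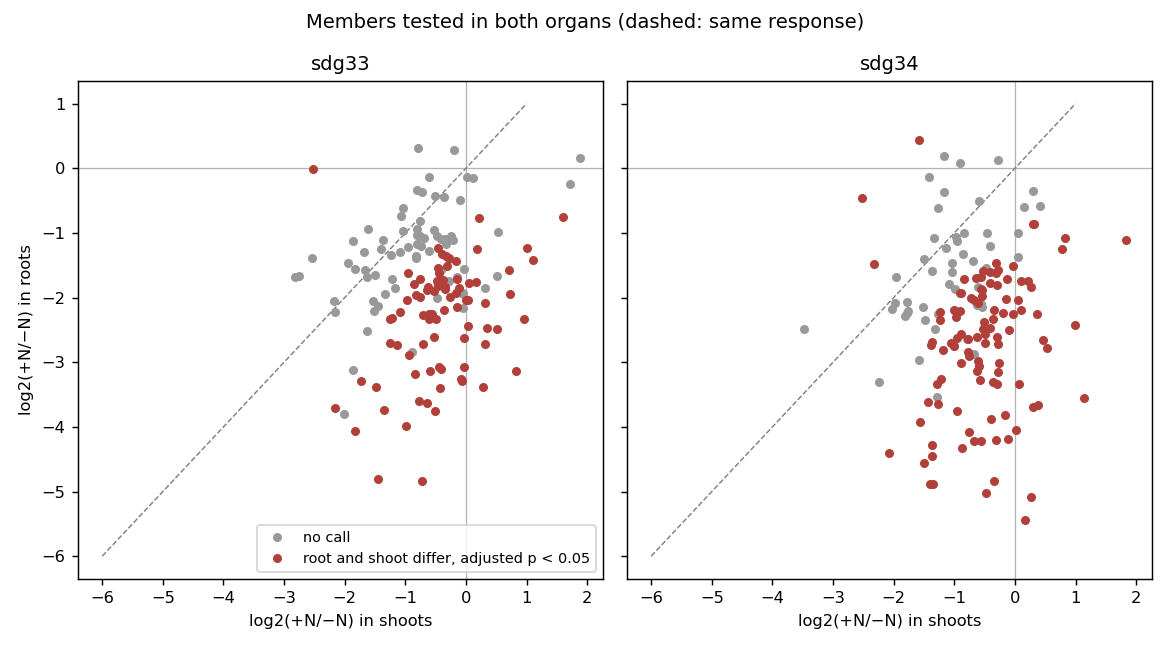
Log2(+N/-N) in roots (vertical axis) against shoots (horizontal axis) for the 154 members tested in both organs, in *sdg33* (left) and *sdg34* (right); red points passed the test of the difference between organs, and the dashed line marks equal responses. Most points lie below the line, with a few above it, among them *Solyc04g078460.3*.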

How the data were processed

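RNA-Seq of roots and shoots was read from 1 deposited table per organ, with 18 libraries each. The authors mapped reads to the tomato genome with BBmap, counted them per gene and miRNA locus with featureCounts and ran their own tests with DESeq2. The deposited values are scores, made by the authors from gene counts by full-quantile normalization and rounding to whole numbers. They carry no depth, so no count model was used.

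Members were chosen by the rule given in the report. The members and gene lists were chosen with earlier results of these data known. Genes that reached 10 in 3 or more libraries entered a linear model of log2(value + 1), fitted in R 4.3.3 by limma 3.58.1 (lmFit, contrasts.fit, eBayes, trended variance). One model of 18 libraries per organ gave the N and genotype contrasts, and another of 36 libraries the contrasts between organs. P-values were adjusted over all genes tested (Benjamini-Hochberg, threshold 0.05), and the steps were tested on simulated data. The sources used here do not say whether replicates were separate cultures, so p-values measure the spread between these pools. Log2 fold changes understate the change of low values.

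Named members were the 10 with the largest rule statistic, the 3 on each side of the rank limit, the 3 lowest and 3 highest in each contrast, those on the gene lists, and up to 4 per described family. *Solyc05g007770.3*, *Solyc01g109790.3*, *Solyc04g015520.3*, *Solyc01g094130.2* and the members listed by name as called or not called were also named after their values were seen. Descriptions came from the study's gene lists, and the RefSeq table at hand matched 0 identifiers, so no sequences or coordinates are given. Alternatives were other pseudocounts, filters, a rescaling by median of ratios, a replicate block, smaller fits, no variance trend, 100 members, a fold limit, and each library left out.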

Additional observations from a re-analysis of the deposited data

Results flagged for a closer look

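The N response differed between groups, by the limma interaction tests, in these cases. Against WT shoots, 7 members had a more negative response in *sdg33* and 4 a less negative one, and 10 and 6 did in *sdg34*. Between organs, 81 of the 154 members past the filter on low values in both organs had a more negative response in roots than in shoots of *sdg33* and 1 a less negative one, and 101 and 3 did in *sdg34*. Another 46 members passed it through roots alone, with shoot values too low to measure a shoot response. With these included, 104 members had a more negative response in roots than in shoots of *sdg33* and 1 a less negative one. In *sdg34*, 129 and 3 did. Members were chosen for their response in WT roots, and the shares over all genes stand in the report.

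Among the members that passed the test, those with the largest differences from WT shoots in log2(+N/-N) were, in *sdg33*, *Solyc04g071610.3* (-1.40), *Solyc06g009190.3* (-1.38), *Solyc04g005070.3* (-1.20), *Solyc12g013620.2* (2.29), *Solyc02g089620.3* (2.21) and *Solyc08g007080.3* (1.37). In *sdg34* they were *Solyc05g052680.1* (-2.93), *Solyc04g005070.3* (-1.48), *Solyc06g059870.1* (-1.45), *Solyc08g007080.3* (2.36), *Solyc02g089620.3* (1.88) and *Solyc07g056570.1* (1.54).

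Between roots and shoots of *sdg33*, the largest differences that passed the test were those of *Solyc03g078500.3* (-6.50), *Solyc04g079510.2* (-6.30), *Solyc10g018150.2* (-5.93) and *Solyc04g078460.3* (2.51). In *sdg34* they were those of *Solyc10g018150.2* (-8.11), *Solyc04g079510.2* (-7.88), *Solyc09g065750.3* (-7.57), *Solyc04g078460.3* (2.06), *Solyc12g013620.2* (2.02) and *Solyc06g059870.1* (0.85). The negative ones belong to members at or near 0 in every shoot library, where no shoot response can be measured.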

How the results depend on the processing

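Of 4040 alternative values of 152 results on named members, 91 lost the call, 21 gained it in the same direction, and 0 reversed a called result. The other 3928 were counted as the same. A change of direction was looked for in called results only, so the 3928 include any such change in results not called. For counts, 770 of 860 alternatives stayed within 1.5 times, and the rest follow, with the cause not tested except where fewer members or a stricter limit must lower a count. For *sdg34* over *sdg33* roots under -N (11 higher), leaving low values unfiltered gave 2, and the count was 6 with at least 10 in every library, 5 without a variance trend and 17 with the replicate block. Under +N (4 lower) it was 2 with a pseudocount of 10, 2 with at least 10 in every library, 2 without a trend, 0 without a filter, 0 with only the libraries of the contrast and 2 at a fold limit of 1. For the difference of their N responses (0) it was 2 and 1 with pseudocounts of 10 and 0.1, and 1 with the replicate block. Members that rose in WT shoots (8) were 4 without a filter and 4 with only the libraries of the contrast. The interaction in *sdg33* shoots gave 8 higher (4) with a pseudocount of 10 and 3 lower (7) without a filter. Between organs, counting only members past the filter in both organs, chosen after seeing the data, gave 81 lower (104) in *sdg33* and 101 lower (129) in *sdg34*, and at least 10 in every library gave 64 lower (104) and 2 higher (1) in *sdg33* and 75 lower (129) in *sdg34*, and the 2 higher in *sdg33* also came with the replicate block and with only the libraries of the contrast. With the 100 largest members, 92 fell in *sdg33* roots and 92 in *sdg34* roots. In shoots 27 fell and 3 rose in *sdg33*, 29 and 1 in *sdg34*, and 30 and 3 in WT, the genotype effect was 34 lower and 15 higher in *sdg33* and 30 and 20 in *sdg34*, the interaction 3 and 2 in *sdg33* and 2 and 3 in *sdg34*, and between organs 63 and 0 in *sdg33* and 72 lower, 1 higher in *sdg34*. With an absolute log2 fold change of at least 1, 34 fell and 3 rose in *sdg33* shoots, 35 and 1 in *sdg34*, and 33 and 2 in WT. At this limit the genotype effect was 47 and 15 in *sdg33* and 39 and 19 in *sdg34*, and the *sdg33* interaction 3 lower. Shares over all genes were not computed at this limit, and those in the report do not apply to it. Leaving out each library gave 2 to 20 higher under -N, 0 to 6 lower and 0 to 4 higher under +N, and 0 to 17 for the difference. It gave 3 to 7 rising in *sdg33* shoots, 5 to 11 in WT shoots, 3 to 11 lower and 4 to 7 higher for the *sdg33* interaction, and 1 to 3 higher between organs in *sdg33*. Within an organ, replicate numbers did not clearly pair the samples. Same-numbered libraries of 2 groups correlated at -0.141 to 0.257 in roots (7 of 45 pairs over 0.1) and -0.113 to 0.186 in shoots (5 of 45). The replicate block moved no other count by over 1.5 times. Pairing of root with shoot libraries was not examined, and the fit of both organs took them as independent. Depth is unknown, so low values carry an unknown counting error.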
